A study of Mus musculus with 8 samples.

Results

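The interferon regulatory factors (IRF) are a family of transcription factors that share a DNA-binding domain and read the GAAA core of interferon response elements. 8 genes of the family were taken by symbol from the 55573 Ensembl gene IDs of a raw count table: Irf1, Irf2, Irf3, Irf4, Irf5, Irf7, Irf8 and Irf9. They were taken as family members and not by their values, though earlier results of these data were known, and all 8 were among the 12500 genes that passed the filter on low counts. The table holds RNA sequencing of naive CD8+ T cells, cytotoxic lymphocytes that have not met their antigen, sorted from spleen and lymph nodes of male C57BL/6 mice after enrichment for CD8a. 5 libraries carry the genotype label Furin KO (1 of 7 weeks, 4 of 8 weeks) and 3 the label WT (1 of 7 weeks, 2 of 8 weeks), and all 8 were unstimulated cells taken ex vivo. The labels do not say how or in which cells Furin was removed, nor whether each library is a separate mouse, so every p-value rests on a spread between libraries that may be partly technical. FURIN is a protease of the secretory pathway that cuts precursor proteins to their active forms.

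Within the family the roles differ. IRF3 and IRF7 are the latent factors that are phosphorylated after viral nucleic acid is sensed and switch on type I interferon genes, and IRF5 does similar work downstream of Toll-like receptors. IRF9 belongs to the complex that carries the type I interferon signal to the genome. IRF1 is induced by interferon-gamma and drives antigen presentation genes, and IRF2 binds the same sites and can oppose it. IRF4 is induced by the T cell receptor in proportion to signal strength and IRF8 by interferon-gamma and antigen. Both bind DNA mostly with partners such as BATF-JUN or PU.1.

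The sequence that the family reads stands just before the start sites of its classical targets. The interferon-stimulated response element, searched as GAAA, any 2 bases and GAAA again, was looked for on both strands of the 300 bases around each RefSeq start site (250 before and 50 after; build GRCm38.p6). It occurred in 3.44% of 32851 such windows, and at 14 of 22 antiviral genes and 12 of 18 genes of an interferon-gamma and IRF1 target list that have a window. 4 of these sites are shown with 10 flanking bases on each side, 5′ to 3′ in the direction of transcription, to let a reader see the element. Capitals mark 1 match in each window, which reads TTTC where it lies on the opposite strand, and in Isg15 further matches overlap it. They are Isg15 (chr4:156200871-156200900, minus strand), Ifit1 (chr19:34640775-34640804, plus strand), Gbp2 (chr3:142620594-142620623, plus strand) and B2m (chr2:122147538-122147567, plus strand).
Isg15: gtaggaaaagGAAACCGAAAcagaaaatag
Ifit1: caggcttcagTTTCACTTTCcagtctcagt
Gbp2: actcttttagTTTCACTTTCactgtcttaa
B2m: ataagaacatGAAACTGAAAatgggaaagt

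The IRF genes' own start sites were read in the same way, and all 8 symbols matched the RefSeq table. The 250 bases before the start are shown for the 3 genes whose Furin KO and WT libraries did not overlap, Irf1, Irf4 and Irf8, and for Irf2, the member among the 8 with a match to the response element. Capitals mark the response element and the gamma-activated sequence bound by STAT dimers (TTCNNNGAA, in 8.30% of all windows). An AP-1 site (TGANTCA, in 7.81% of windows) was also searched and was in none of the 8, and no marked match overlaps another. Irf1 (chr11:53769764-53770013) holds TTCCCCGAA, whose first base lies 90 bases before the start. Irf8 (chr8:120736108-120736357) holds TTCTCGGAA and TTCAGAGAA, and Irf2 (chr8:46739495-46739744) holds GAAAATGAAA and TTCCGAGAA. Irf4 (chr13:30748983-30749232) has none of the 3 motifs in its window, and nor have Irf3, Irf5, Irf7 and Irf9. The RefSeq start sites of Irf9 lie 414 and 1008 bases inside the annotated gene, so the bases before its annotated start were not searched. All 4 genes printed below lie on the plus strand.
Irf1: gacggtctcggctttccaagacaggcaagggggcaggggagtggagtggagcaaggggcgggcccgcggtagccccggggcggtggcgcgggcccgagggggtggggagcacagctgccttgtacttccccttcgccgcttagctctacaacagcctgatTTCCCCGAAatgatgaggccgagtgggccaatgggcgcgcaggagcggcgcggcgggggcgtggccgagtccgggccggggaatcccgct
Irf4: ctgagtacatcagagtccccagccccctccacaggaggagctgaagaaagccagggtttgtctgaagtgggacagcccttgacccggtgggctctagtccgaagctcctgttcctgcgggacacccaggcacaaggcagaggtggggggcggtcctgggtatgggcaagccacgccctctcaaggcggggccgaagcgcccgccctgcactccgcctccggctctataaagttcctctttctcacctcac
Irf8: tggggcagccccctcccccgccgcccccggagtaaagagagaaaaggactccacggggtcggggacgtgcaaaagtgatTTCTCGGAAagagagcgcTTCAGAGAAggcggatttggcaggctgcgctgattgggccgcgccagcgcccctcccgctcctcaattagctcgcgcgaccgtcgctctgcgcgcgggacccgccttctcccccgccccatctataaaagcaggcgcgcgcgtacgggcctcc
Irf2: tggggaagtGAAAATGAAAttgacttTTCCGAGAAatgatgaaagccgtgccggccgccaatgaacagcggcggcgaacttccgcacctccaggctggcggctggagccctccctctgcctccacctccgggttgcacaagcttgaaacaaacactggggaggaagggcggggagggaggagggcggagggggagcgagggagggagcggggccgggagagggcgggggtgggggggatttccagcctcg
A match is a string of letters in a window and was not tied to binding by any value here.

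The libraries held 11308220 to 21040431 counts. Cd8a, the CD8 alpha chain, was at 1456 CPM or more in every library, where CPM is the count scaled to a library of 1000000 counts, after adjusting library sizes by TMM factors. Furin itself was at 69.3 ± 11.8 CPM (SD, n = 5) under the label Furin KO, against 63.6 ± 5.71 CPM (SD, n = 3) under the label WT. The count covers the whole gene and the deleted part is not stated, so it checks neither label, and Furin KO and WT name libraries by their labels throughout. Furin KO replicate 5, the shallowest, stood apart on the first principal component at 66.7, against -15.2 to -0.127 in the other libraries. A pairwise chi-square over gene counts, looked at after seeing the data, was used to group the libraries, with the number of sets fixed at 3. The sets are not sharply apart. The chi-square per degree of freedom reached 17.55 within a set (Furin KO replicate 3 and WT replicate 2). Between sets it was as low as 17.65 (Furin KO replicate 5 and WT replicate 1). Each set holds both genotypes. Set 1 holds Furin KO replicate 1 and WT replicate 1, both of 7 weeks. Set 2 holds Furin KO replicates 2 and 3 and WT replicate 2, which are low in the immediate early gene Fos, at 85.8 to 204 CPM in these 3 libraries and 801 to 1075 CPM in the other 5. Set 3 holds Furin KO replicates 4 and 5 and WT replicate 3.

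Naive CD8+ T cells carried 5 abundant IRF transcripts and 3 scarce ones. Levels of different genes are compared as CPM per kb of exonic length. Irf1 was highest, at 135 ± 10.04 CPM per kb in Furin KO and 114.8 ± 3.26 in WT, and it lay above every other member in all 8 libraries. Irf3 followed at 67.05 ± 4.10 in Furin KO and 65.9 ± 1.14 in WT, and Irf7 at 56.02 ± 10.2 in Furin KO and 55.9 ± 5.74 in WT. Irf3 lay above Irf7 in 7 of 8 libraries (all but Furin KO replicate 4), and their ranges over all libraries overlapped. Irf9 at 32.3 ± 2.58 and 30.2 ± 2.73 and Irf2 at 20.9 ± 3.53 and 18.8 ± 2.93 CPM per kb (Furin KO first in each) did not overlap with each other or with the members above them. The myeloid and lymphoid factors were far lower: Irf4 averaged 2.09 ± 0.452 CPM per kb in Furin KO and 0.856 ± 0.606 in WT, and Irf8 averaged 1.13 ± 0.143 and 0.703 ± 0.0831. Irf5 was lowest at 0.256 ± 0.178 and 0.201 ± 0.0101 CPM per kb. Irf4 and Irf8 overlapped, and by the length of the longest transcript in place of all exons their order turned, with Irf8 at 1.97 and Irf4 at 1.68 CPM per kb over all 8 libraries. Irf4 made up 0.665% of the summed level of the 8 members in Furin KO libraries and 0.298% in WT libraries.

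**Figure D1:**
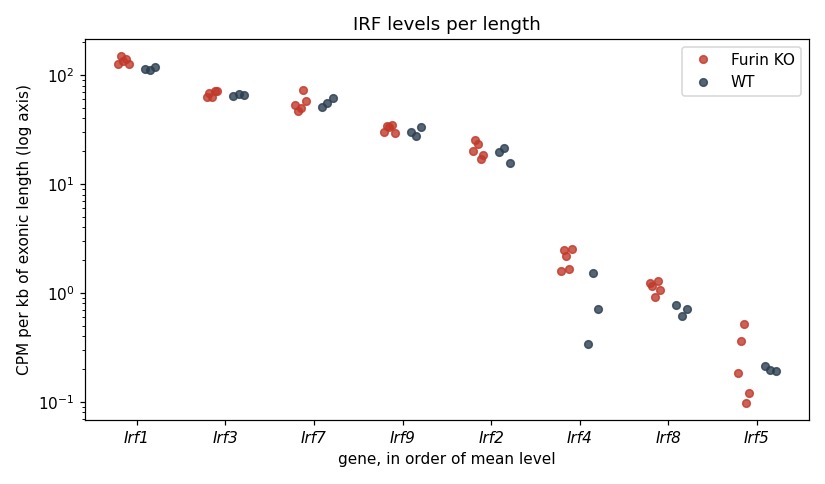
CPM per kb of exonic length (log axis) of each IRF gene in each library, genes in order of their mean over 8 libraries, Furin KO points left of WT points. Irf1, Irf3, Irf7, Irf9 and Irf2 lie between 15.6 and 149 CPM per kb in every library, and Irf4, Irf8 and Irf5 between 0.0984 and 2.53.

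The genotype comparison asked whether RNA levels in resting CD8+ T cells differ between libraries labelled Furin KO and WT. 0 of the 8 IRF genes passed, where passing is an adjusted p under 0.05 (edgeR quasi-likelihood, Benjamini-Hochberg over all 12500 genes). In that test 4 genes, or 0.032% of all tested, passed, and 0.024% passed with Furin KO higher. DESeq2 and limma-voom also called 0 of the 8, against 0.111% and 0.04% of all genes. At an unadjusted p under 0.05 there were 3 members, Irf1, Irf4 and Irf8, all with a positive log2 fold change (Furin KO over WT), against 3.21% of all genes, and 1.61% in that direction. The same 3 had every Furin KO library above every WT library. Groups without overlap made up 2.9% of all genes, and 1.31% with Furin KO higher. All 8 members had a log2 fold change above 0, with a median of 0.19, where 49.8% of all genes lay above 0 and the median was -0.00068. The direction of Irf5, Irf7 and Irf9 turned in some alternatives. The cells were sequenced in bulk, so a change in the number of cells that express a gene and a change in RNA per cell cannot be told apart.

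**Figure D2:**
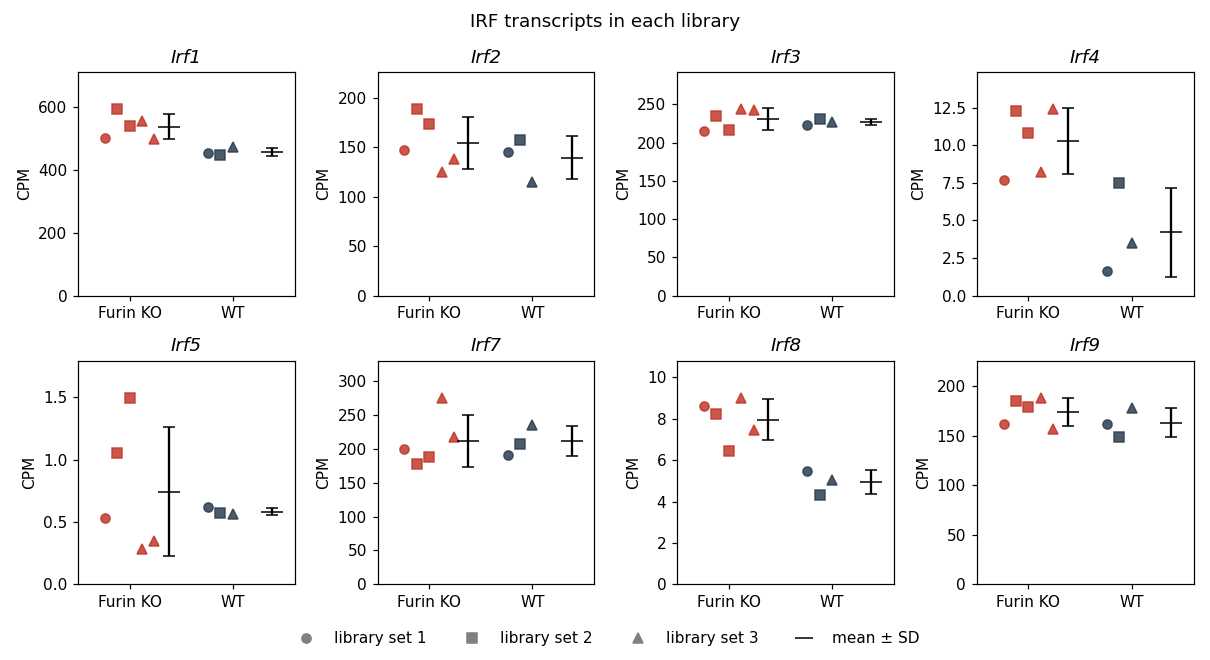
CPM of each IRF gene (linear axis from 0) in 5 Furin KO libraries, at left, and 3 WT libraries, at right. Marker shapes give the library set, and the bar at the right of each group its mean ± SD. The groups do not overlap at Irf1, Irf4 and Irf8, where the lowest Furin KO library is at 497.8, 7.71 and 6.46 CPM and the highest WT library at 471, 7.46 and 5.49 CPM.

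Irf4 (ENSMUSG00000021356; GRCm38 chromosome 13, 30749226 to 30766976, plus strand), the factor of T cell receptor signal strength, had the largest difference of the 8. It was at 7.71, 12.3, 10.8, 8.19 and 12.4 CPM in Furin KO replicates 1 to 5, against 1.65, 7.46 and 3.49 CPM in WT replicates 1 to 3. These are 159, 256, 202, 172 and 141 counts in Furin KO, against 24, 143 and 62 counts in WT. The groups are separated by a narrow gap, because WT replicate 2 reaches nearly as high as Furin KO replicate 1, while the other WT libraries are well under all the rest. Furin KO libraries averaged 10.3 ± 2.21 CPM and WT libraries 4.20 ± 2.97 CPM (SD, n = 5 and 3). On the log2 scale the fold change was 1.27 (SE 0.36, 95% interval 0.52 to 2.02; edgeR adjusted p = 0.951), the 31st lowest p of 12500, and the two-sided exact permutation p, computed on log2(CPM + 1), was 0.0179, the smallest that 56 arrangements allow.

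Irf4 differed between the WT libraries, of which each library set holds 1. The Furin KO libraries lay above WT in each set, which follows from the separation of the groups and adds nothing to it. In set 1 Irf4 was 7.71 CPM in Furin KO and 1.65 in WT (n = 1 and 1). In set 2, low in Fos, it was 11.5 CPM in Furin KO and 7.46 in WT (n = 2 and 1), and in set 3 it was 10.3 and 3.49 CPM (n = 2 and 1). The ratio of Furin KO to WT was 4.68, 1.54 and 2.95 in the sets in turn. The set with the highest WT level had the smallest ratio, but that level is 1 library and also the divisor of the ratio. With the set as a factor the edgeR adjusted p was 0.0817, and without a filter on low counts it was 0.00543, in a fit that called 38 genes (0.19%). Over all alternatives it ran from 0.00543 to 0.99997. Without WT replicate 2 the log2 fold change was 1.98 (edgeR adjusted p = 0.0676).

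Irf8 (ENSMUSG00000041515; chromosome 8, 120736358 to 120756694, plus strand), best known for dendritic cell and B cell development and also induced in activated CD8+ T cells, was the most even of the 3 across sets. It was at 8.63, 8.24, 6.46, 9.005 and 7.47 CPM in Furin KO replicates 1 to 5, against 5.49, 4.33 and 5.06 CPM in WT replicates 1 to 3. Counts were 85 to 189 in Furin KO libraries and 80 to 90 in WT libraries. No WT library reached the lowest Furin KO library, replicate 3. The log2 fold change was 0.69 (SE 0.24, 95% interval 0.18 to 1.19; edgeR adjusted p = 0.9998; exact two-sided permutation p = 0.0179). The ratio of Furin KO to WT was 1.57, 1.70 and 1.63 in sets 1, 2 and 3.

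Irf5 (ENSMUSG00000029771; chromosome 6, 29526625 to 29541871, plus strand), a factor of myeloid and B cells, stood near the limit of detection. It had 11, 22, 28, 6 and 4 counts in Furin KO libraries, against 9, 11 and 10 in WT libraries. The 2 highest and the 3 lowest of the 8 CPM values were all Furin KO, so the WT libraries lay inside the Furin KO range. Its log2 fold change was 0.36 with a 95% interval of -1.36 to 2.07 (edgeR adjusted p = 0.9998). 411 bases of its exons overlap Tnpo3 on the opposite strand, a gene with 24227 counts in all, and whether the counting used strand is not stated in the labels.

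The scarce members are the ones that other blood cells express strongly, so markers of those cells are given beside them. For B cells, 5 of 12 markers, among them Ms4a1 and Cd22, had 0 counts in all 8 libraries. The summed B cell markers were 21.6 to 30.9 CPM in Furin KO libraries and 23.9 to 31.0 CPM in WT libraries, most of it Cd79b. For dendritic cells, Xcr1, Clec9a, Clec10a and Siglech had 0 counts throughout. The 14 dendritic markers summed to 130.3 to 168 CPM in Furin KO and 137 to 165 CPM in WT, of which Pacsin1 alone was 123.8 to 158 and 133 to 157 CPM. Of the 5 dendritic markers tested, 4 had a log2 fold change above 0, with a median of 0.32, and 0 passed. Cd74, the invariant chain of MHC class II, lay in the direction of Irf8, at 2.18, 4.26, 4.43, 3.34 and 2.99 CPM in Furin KO replicates 1 to 5, against 1.65, 2.30 and 2.47 CPM in WT replicates 1 to 3 (log2 fold change 0.68, edgeR adjusted p = 0.9998). Its groups overlapped through Furin KO replicate 1, and its part in the Irf8 values was not tested. For monocytes and macrophages 5 of 10 markers, Csf1r and Adgre1 among them, were at 0, with sums of 5.17 to 13.2 CPM in Furin KO and 4.70 to 12.6 CPM in WT. For NK cells 3 of 8 were at 0, with sums of at most 1.26 CPM in Furin KO and 1.46 CPM in WT.

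The 6 markers of CD4+ and regulatory T cells, cells in which IRF4 is active, summed to 61.8 to 72.9 CPM in Furin KO libraries and 48.3 to 58.8 CPM in WT libraries, which did not overlap. Most of that sum was Izumo1r, a folate receptor family gene, at 56.3 ± 7.84 CPM in Furin KO and 39.8 ± 8.43 CPM in WT (log2 fold change 0.50, edgeR adjusted p = 0.9998). Its own groups overlapped, with the lowest Furin KO library at 44.7 CPM and the highest WT library at 47.7 CPM. Of the 3 markers tested, 1 had a log2 fold change above 0 and 2 below, and 0 passed. Those below were Foxp3 at -0.90 and Ikzf2 at -0.25. The defining genes were near 0. Cd4 was at most 0.352 CPM in Furin KO and 0.892 CPM in WT, and Foxp3 was between 0 and 2.28 CPM in Furin KO and between 1.97 and 2.14 CPM in WT. What part these cells have in the Irf4 values was not tested.

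Irf1 (ENSMUSG00000018899; chromosome 11, 53770014 to 53778374, plus strand), the most abundant member, had the smallest of the 3 separated differences. It was at 499.8, 593, 541, 556 and 497.8 CPM in Furin KO replicates 1 to 5, against 452, 446 and 471 CPM in WT replicates 1 to 3. The 3 WT libraries lay close to each other and under every Furin KO library. The log2 fold change was 0.24 (SE 0.09, 95% interval 0.05 to 0.42; edgeR adjusted p = 0.9998), a fold of 1.18, and the exact two-sided permutation p was 0.0357. The ratio of Furin KO to WT was 1.11, 1.27 and 1.12 in sets 1, 2 and 3. Unlike Irf4 and Irf8, it was no longer under an unadjusted p of 0.05 without WT replicate 2 or without the 3 libraries low in Fos.

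Irf2 (ENSMUSG00000031627, chromosome 8, 46739732 to 46847458, plus strand), which binds the sites of IRF1, differed between the library sets, and its genotype groups overlapped. It was at 147, 188, 173, 125 and 138 CPM in Furin KO replicates 1 to 5, against 145, 157 and 115 CPM in WT replicates 1 to 3. The 3 libraries low in Fos had the 3 highest values, and WT replicate 3 and Furin KO replicates 4 and 5 the 3 lowest. Within each set, every Furin KO library lay above the 1 WT library. The ratio of Furin KO to WT was 1.02, 1.15 and 1.14 in sets 1, 2 and 3. The log2 fold change was 0.15 (95% interval -0.13 to 0.43; edgeR adjusted p = 0.9998).

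The sensor-driven members did not separate the genotypes. Irf3 (ENSMUSG00000003184; chromosome 7, 44997648 to 45002848, plus strand) was at 215, 235, 216, 244 and 243 CPM in Furin KO replicates 1 to 5, against 223, 231 and 227 CPM in WT replicates 1 to 3. Its interval was the narrowest of the 8, with a log2 fold change of 0.02 (95% interval -0.16 to 0.21; edgeR adjusted p = 0.9998). Irf7 (ENSMUSG00000025498; chromosome 7, 141262706 to 141266481, minus strand), which interferon itself induces, was at 200.01, 178, 187, 275 and 218 CPM in Furin KO, against 191, 208 and 234 CPM in WT. Furin KO replicate 4 had the highest value and Furin KO replicates 2 and 3 the lowest, so the WT range lay inside that of Furin KO. Its log2 fold change was 0.0024 (95% interval -0.26 to 0.27; edgeR adjusted p = 0.9998).

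Irf9 (ENSMUSG00000002325; chromosome 14, 55603571 to 55610030, plus strand), the DNA-binding subunit of the type I interferon complex, was at 161, 184, 178, 188 and 157 CPM in Furin KO replicates 1 to 5, against 162, 149 and 178 CPM in WT replicates 1 to 3. The groups overlapped, and the log2 fold change was 0.09 (95% interval -0.11 to 0.30; edgeR adjusted p = 0.9998). Rnf31 shares 123 of its exonic bases on the same strand, and Irf3, Irf7 and Irf1 share 88, 45 and 135 exonic bases with Bcl2l12, Phrf1 and Gm17334 on the opposite strand.

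**Figure D3:**
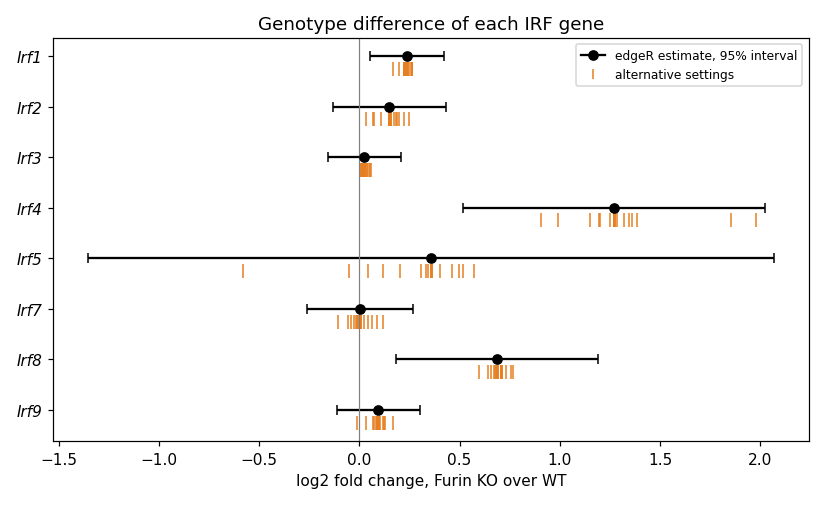
Log2 fold change of each IRF gene, Furin KO over WT, by edgeR with its 95% interval (black), and its value under each alternative setting (orange marks under it). The intervals of Irf1, Irf4 and Irf8 lie above 0, from 0.05, 0.52 and 0.18, and the other 5 include 0.

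The genes around the family were read as lists. These are the members' inputs, partners and targets. Of the sensors, adaptors and kinases that activate IRF3, IRF5 and IRF7, 0 of 19 tested passed, 15 had a log2 fold change above 0 and the median was 0.10. Tmem173 (STING, the adaptor of DNA sensing) was at 193 ± 15.9 CPM in Furin KO and 167 ± 10.5 CPM in WT (log2 fold change 0.20, edgeR adjusted p = 0.9998). Ticam1 had a log2 fold change of 0.39, and the 2 most abundant kinases, Ikbke and Ikbkb, 0.0087 and 0.01. The interferons that these factors induce were not seen: 9 of 10, Ifnb1 and 4 alpha genes among them, had 0 counts in all 8 libraries, and Ifng, the remaining gene, was at 0.439 ± 0.401 CPM in Furin KO and 0.214 ± 0.262 CPM in WT.

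Of the interferon receptors, Janus kinases and STATs that act on Irf1, Irf7 and Irf9, 0 of 11 passed. Of these, 8 had a log2 fold change above 0, and the median was 0.03. Jak1, a kinase of both interferon receptors, was at 1416 ± 31.3 CPM in Furin KO and 1497 ± 15.3 CPM in WT. Its groups did not overlap, with a log2 fold change of -0.08, where 1.59% of all genes were separated with Furin KO lower. Ifngr2, a chain of the interferon-gamma receptor, had -0.33 and Stat3 had 0.17.

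Of the DNA partners of IRF4 and IRF8, 0 of 9 tested passed, with 4 log2 fold changes above 0 and a median of -0.07. Batf, which binds with IRF4 at composite elements in T cells, was at 34.9 ± 2.33 CPM in Furin KO and 30.0 ± 1.85 CPM in WT (log2 fold change 0.22, edgeR adjusted p = 0.9998). Its groups did not overlap, where 1.31% of all genes were separated with Furin KO higher. Ikzf1 had 0.0028 and Ets1 -0.13. Of the corepressors and ubiquitin ligases that act on IRF proteins 0 of 8 passed, with a median of -0.05. Among them Irf2bpl had -0.25, Trim21 0.11, Rbck1 0.02 and Peli1 -0.05.

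The target lists had more values above 0 than below. So had the sensors, adaptors and kinases (15 above and 4 below), the receptors, kinases and STATs (8 and 3), and the effector genes described below (11 and 5). All 23 tested genes of interferon-gamma and IRF1 had a log2 fold change above 0, where 49.8% of all genes lay above 0. Their median was 0.22, where the median over all genes was -0.00068, and 0 of the 23 passed. The list was chosen with earlier results of these data known. Its genes can also vary together, so they are not 23 separate observations and the count is a description. Iigp1, an interferon-inducible GTPase, was the gene of the 23 without overlap between groups, against 1.31% of all genes with Furin KO higher. It was at 33.4, 48.5, 47.3, 42.9 and 23.2 CPM in Furin KO replicates 1 to 5, against 17.6, 22.4 and 17.1 CPM in WT replicates 1 to 3 (log2 fold change 1.04, edgeR adjusted p = 0.156). It passed by DESeq2, without a filter on low counts, without Furin KO replicate 5 and with the library set as a factor. Gbp2, whose response element is printed above, was at 251 ± 59.9 CPM in Furin KO and 182 ± 12.6 CPM in WT (log2 fold change 0.47, edgeR adjusted p = 0.9998). Nlrc5, the transactivator of MHC class I genes, had 0.17 and B2m, the class I light chain, 0.11.

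Among antiviral genes of the type I interferon response 0 of 30 passed, 19 lay above 0 and the median log2 fold change was 0.10. Ifit1bl1 was at 168 ± 39.5 CPM in Furin KO and 129 ± 15.01 CPM in WT (0.38) and Zbp1, a sensor of Z-form nucleic acid, at 202 ± 30.5 and 167 ± 2.30 CPM (0.27), and neither passed (edgeR adjusted p = 0.9998 for both). The antiviral genes printed above, Isg15 at -0.03 and Ifit1 at -0.10, were among the 11 of the list below 0. Samd9l and Parp14, the most abundant of the list, had 0.09 and 0.13. Over the genome, 336 tested genes hold the response element in a start-site window: 59.5% of them had a log2 fold change above 0, with a median of 0.03, and 0 passed. Of the 8603 tested genes with windows that lack it, 49.0% lay above 0, with a median of -0.003. For the gamma-activated sequence the share above 0 was 53.8% with it and 49.0% without it. For the AP-1 site it was 53.2% with it and 49.1% without it. The 336 genes include genes of the 2 target lists, so their share is not a separate observation.

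**Figure D4:**
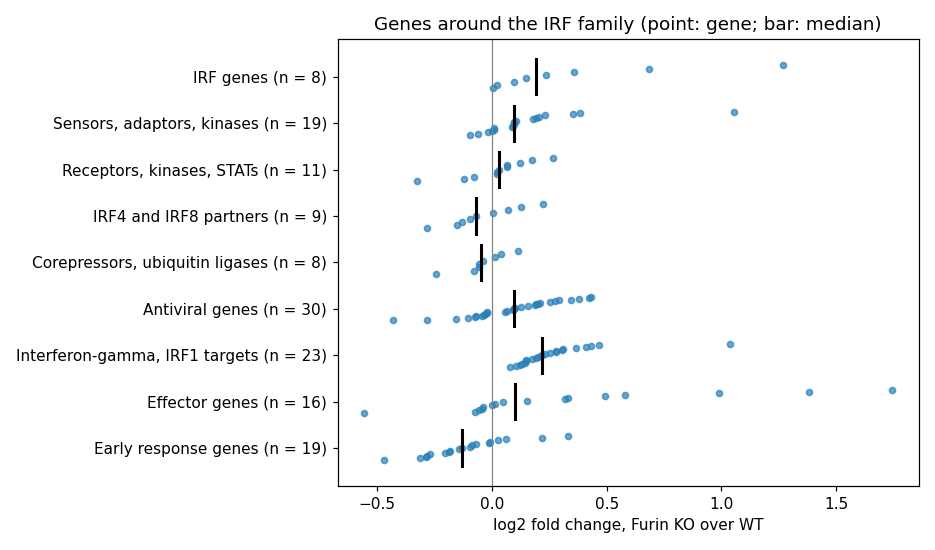
Log2 fold change (Furin KO over WT) of each tested gene (point) in the IRF family and in 8 lists of genes around it, with the median of each list (bar). All 23 genes of the interferon-gamma and IRF1 target list lie right of 0, where 49.8% of all tested genes lie. The lists were chosen with earlier results of these data known. The early response genes have a median of -0.13, and Fos, Jun and Dusp1 among them were low in the libraries of set 2, of both genotypes.

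Genes that activated CD8+ T cells switch on, many of them with IRF4, were given as a list of effector genes, of which 0 of 16 passed and 11 lay above 0 (median 0.10). Tbx21 (T-bet) and Ctla4, an inhibitory receptor, did not overlap between groups, where 1.31% of all genes were separated with Furin KO higher. Tbx21 was at 6.73 ± 1.501 CPM in Furin KO and 2.02 ± 0.826 CPM in WT (log2 fold change 1.74, edgeR adjusted p = 0.171; it passed by DESeq2 and without a filter on low counts), and Ctla4 at 5.21 ± 1.72 and 2.02 ± 1.605 CPM (1.38, edgeR adjusted p = 0.9998). Of the more abundant effector genes Myc had 0.33 and Id2 0.05. Early response genes of stimulation gave 0 of 19 past the test and 15 of 19 below 0, with a median log2 fold change of -0.13. Junb had -0.28, Klf6 -0.27, Zfp36 0.02 and Myc, which stands in both lists, 0.33. The summed early response genes spanned 2024 to 6872 CPM in Furin KO libraries and 2436 to 6948 CPM in WT libraries.

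The genes whose pattern over the 8 libraries was most like that of Irf4 and Irf8 were taken from 8328 genes with a mean of at least 10 CPM, by Pearson's r of log2(CPM + 1). They were chosen for a high r, so r is given as a description with no test, and the genotype difference of Irf4 and Irf8 is part of it. For Irf4 they were Rad1, a DNA damage checkpoint protein (r = 0.97), Cops3, a COP9 signalosome subunit (0.96), Alas1, an enzyme of haem synthesis (0.95), and Nfkb1, an NF-kB subunit (0.93). For Irf8 they were Il12rb1, a chain of the interleukin-12 receptor (0.95), Frmd4a (0.94), Socs3, an inhibitor of cytokine receptor signalling (0.94), and Cep44, a centrosomal protein (0.94). Of these 8 genes Socs3 passed the genotype test (log2 fold change 0.92, edgeR adjusted p = 0.00164), and it was at 431, 553, 360.3, 457 and 424 CPM in Furin KO replicates 1 to 5, against 245, 231 and 231 CPM in WT replicates 1 to 3.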

How the data were processed

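Total RNA of naive CD8+ T cells was sequenced in 5 Furin KO and 3 WT libraries. The authors deposited raw whole-number counts per Ensembl gene in 1 table, whose columns were matched to samples by title. Per the submitters' processing notes, FastQC, Trim Galore, STAR, DESeq2 1.24.0 and the build GRCm38 were used; the counting program, its annotation and its use of strand are not stated there, so genes that overlap others are uncertain. Symbols, positions and exonic lengths came from GENCODE M21 (GRCm38), which matched 55480 of 55573 IDs; promoter sequences came from RefSeq on GRCm38.p6.

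Genotype was tested without covariates on the deposited counts by the two-sided quasi-likelihood test of edgeR 4.0.16 (with limma 3.58.1 and R 4.3.3), after filterByExpr and TMM scaling, over 12500 genes, with a threshold of 0.05 on the Benjamini-Hochberg adjusted p. The procedure was also run on simulated data as a check of the code, which does not show how small a difference it could detect here. CPM use TMM-scaled library sizes; confidence intervals come from the fit. DESeq2 1.42.0 and limma-voom were alternatives. Replicate numbers follow accession order and pair nothing.

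The members, the 9 pathway lists and the 6 marker lists were chosen with earlier results of these data known, as were the alternatives. Of each list, genes past the test were named and otherwise the 2 most abundant and the 2 of lowest unadjusted p; 1 gene under this rule is not reported here. Isg15 and Ifit1 were named as textbook targets, and the markers, Furin, Cd8a and Izumo1r as checks. Libraries held 11308220 to 21040431 counts, which sets the precision: members had 4 counts (Irf5) to 12372 counts (Irf1) in a library.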

Additional observations from a re-analysis of the deposited data

Results flagged for a closer look

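Among the 5 Furin KO libraries, 1 of 39 values tested (the 8 IRF genes and the list genes named beside them) contained a library set apart from the others (Dixon, 95% level), where chance gives about 1.95 such values. Myc, a transcription factor of cell growth that stands in the effector and early response lists, was at 170 CPM in Furin KO replicate 3, against 312 to 362 CPM in the other 4 Furin KO libraries. No IRF gene was among the values so marked.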

How the results depend on the processing

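Under 18 alternatives (size factors, filters, DESeq2, limma-voom, age or library set as a factor, the 8-week libraries alone, libraries left out), Irf1, Irf2, Irf3, Irf4 and Irf8 kept a log2 fold change above 0, and Irf4 without a filter on low counts was the 1 member call in any of them (1.27, edgeR adjusted p = 0.00543). With 1 library left out the log2 fold change ran from 0.20 to 0.26 for Irf1, 0.03 to 0.25 for Irf2, 0.0043 to 0.05 for Irf3, 0.91 to 1.98 for Irf4, -0.051 to 0.57 for Irf5, -0.11 to 0.087 for Irf7, 0.60 to 0.77 for Irf8 and 0.03 to 0.17 for Irf9, and 0 members were called. Irf7 turned negative by limma-voom (-0.013), with age as a factor (-0.015), in the 8-week libraries (-0.044) and with the library set as a factor (-0.025), and without the 3 libraries low in Fos Irf5 was -0.58 and Irf9 -0.011. Irf5 was not tested under a filter of 1 CPM in 3 libraries. The library set and the libraries low in Fos as alternatives were chosen after seeing the data.

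Genes called over all genes numbered 38 without a filter, 14 by DESeq2, 12 with the library set as a factor and 8 without the libraries low in Fos (3 to 5 with 1 library left out), against 4. List genes called numbered 4 without a filter (Gbp2, Igtp, Iigp1, Tbx21), 2 by DESeq2 (Iigp1, Tbx21), 1 with the library set (Iigp1) and 1 without the libraries low in Fos (Myc), and 0 to 1 with 1 library left out, against 0. By the longest transcript, levels were 237 (Irf1), 37.5 (Irf2), 113 (Irf3), 65.2 (Irf7), 1.97 (Irf8) and 43.9 (Irf9) CPM per kb. The cause of these changes was not tested. No paired analysis was possible because the labels carry no replicate numbers, and the library set, found in the data, stood as a factor instead. Irf5 had 4 to 28 counts per library, so its counting error is large.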
